A study of Homo sapiens with 5 samples.

Results

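The peaks described here are the binding sites of ZBTB7A called around 7 genes of the RB and E2F family: RB1, RBL1, RBL2, E2F1, E2F2, E2F7 and E2F8. ZBTB7A (also called Pokemon or LRF) is a transcription factor with a BTB domain and zinc fingers. It was mapped by ChIP-seq, the sequencing of DNA recovered with an antibody against the protein. A peak was counted for a gene when its summit, the base of highest signal, lay within 50 kb of the span given for that gene on the hg19 build. By this rule 137 of the 196770 deposited peaks belonged to the family. The cells were VCaP, a cell line established from prostate cancer, with an active androgen receptor and a TMPRSS2-ERG fusion. In 2 groups the cells were in medium with 5% hormone-depleted serum. They were treated for 4 hours with vehicle (CSS, 2 libraries) or with 10 nM of the androgen DHT (DHT, 2 libraries). In the other group they were grown in 10% full serum (FBS, 1 library), which is read here as free of added DHT because of its culture condition. All 3 groups are VCaP cells with no knockdown named in their labels.

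Each condition is represented by 1 peak list, with 37782 peaks in CSS, 34120 in DHT and 124868 in FBS. Of these, 34 CSS, 35 DHT and 68 FBS peaks lay at the 7 genes. No value per library was used, so the spread between replicates is unknown and no test between conditions was made. Read depth is also unknown, and the FBS list is 3.30 times as long as the CSS list. The fold enrichment and −log10 q of a peak are the authors' values. They are set side by side below and rank peaks within a list only, since a fixed value need not mean equal binding in different lists. Intervals are 95% and cover counting error only, and neighbouring peaks are not independent.

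The RB protein and its relatives p107 (gene RBL1) and p130 (gene RBL2) are pocket proteins. They hold E2F transcription factors at the promoters of cell cycle genes and keep those genes off until cyclin-dependent kinases phosphorylate them. RB binds mainly the activator E2Fs, such as E2F1 and E2F2, which drive entry into S phase. The p107 and p130 proteins work mainly with repressor E2Fs, and p130 is abundant in resting cells as part of the DREAM complex. E2F7 and E2F8 are atypical members that carry a pair of DNA-binding domains, bind without a DP partner and repress E2F target genes, E2F1 among them. Several family genes are themselves E2F targets. In prostate cancer, loss of RB1 is known as a route to growth that no longer depends on the androgen receptor.

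A ZBTB7A peak lay at the 5′ end of all 7 genes, and the promoters of 5 are shown, those with a RefSeq promoter entry at the start of the gene. The 250 bases before the start of the gene come from RefSeq on GRCh38.p14, a different build from the hg19 peaks, so no summit can be placed on these letters. Capitals mark the words searched on both strands. For E2F these were TTTCGCGC, TTTGGCGC, TTTCCCGC and TTTGGCGG. For ZBTB7A they were GACCC and CGACCACCG. The E2F words share some letters, but no 2 matches overlapped here.

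E2F1 (chr20:33686386-33686635, minus strand): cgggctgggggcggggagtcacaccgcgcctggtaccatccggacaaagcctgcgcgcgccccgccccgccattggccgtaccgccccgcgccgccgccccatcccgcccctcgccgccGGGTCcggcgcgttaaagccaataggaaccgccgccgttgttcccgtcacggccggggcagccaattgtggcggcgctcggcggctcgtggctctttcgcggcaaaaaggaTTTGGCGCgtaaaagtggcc

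E2F2 (chr1:23531234-23531483, minus strand): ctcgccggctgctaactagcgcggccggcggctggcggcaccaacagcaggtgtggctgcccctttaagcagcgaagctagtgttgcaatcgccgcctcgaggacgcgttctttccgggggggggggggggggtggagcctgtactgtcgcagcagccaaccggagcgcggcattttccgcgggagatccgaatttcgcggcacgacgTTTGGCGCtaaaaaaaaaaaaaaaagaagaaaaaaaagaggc

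RBL1 (chr20:37095998-37096247, minus strand): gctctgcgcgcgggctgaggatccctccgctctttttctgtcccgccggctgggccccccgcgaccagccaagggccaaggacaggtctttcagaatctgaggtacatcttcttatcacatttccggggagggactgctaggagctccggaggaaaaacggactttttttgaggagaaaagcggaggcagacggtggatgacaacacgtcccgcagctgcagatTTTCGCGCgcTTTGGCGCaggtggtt

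RBL2 (chr16:53434221-53434470, plus strand): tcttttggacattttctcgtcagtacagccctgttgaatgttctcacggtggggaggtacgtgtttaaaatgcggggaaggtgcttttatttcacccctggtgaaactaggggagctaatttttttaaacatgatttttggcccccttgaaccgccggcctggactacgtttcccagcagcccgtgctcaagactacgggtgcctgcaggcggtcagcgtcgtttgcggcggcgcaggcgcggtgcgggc

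E2F7 (chr12:77065570-77065819, minus strand): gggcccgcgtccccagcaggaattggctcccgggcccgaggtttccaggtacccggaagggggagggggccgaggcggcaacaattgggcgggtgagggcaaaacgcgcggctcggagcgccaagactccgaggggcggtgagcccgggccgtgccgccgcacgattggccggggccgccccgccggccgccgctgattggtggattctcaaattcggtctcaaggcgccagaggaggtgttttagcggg

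An E2F word stood close before the start of 3 of these 5 genes. TTTGGCGC began 20 bases before the start in E2F1, 42 bases before it in E2F2 and 16 bases before it in RBL1. RBL1 also held TTTCGCGC, which began 26 bases before the start. Of the 35116 RefSeq promoter entries, 2.83% held any of the 4 E2F words and 0.122% held at least 2 matches, as RBL1 did. No E2F word was found in the windows of RBL2 and E2F7. Among these 5 windows the short word GACCC, present in 42.1% of all entries, was found in E2F1 alone, where it lay on the opposite strand from 131 bases before the start. CGACCACCG was in none of the 5. G and C made up 72.4% of the window in E2F1, 71.2% in E2F7, 60.8% in E2F2, 59.2% in RBL1 and 55.2% in RBL2, against a median of 58% over all entries. A match is a feature of the sequence and not a shown site. RBL2 has another RefSeq start inside the gene, which is not printed. The RB1 entry is for a start far inside the gene, so it is not shown. E2F8 has no promoter entry and is named only.

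ZBTB7A peaks were found at the 5′ end of all 7 genes in CSS and FBS and of 5 genes in DHT. A gene was counted when a summit lay within 2 kb of the 5′ end of its span, and the spans are rounded to 1 kb. The genes without such a DHT peak were RBL2 and E2F2. As a background, 4.62% of all 4 kb windows held a CSS summit, 4.21% a DHT summit and 14.8% an FBS summit. These windows are mostly not promoters, and the share among all gene starts was not analysed here because the gene table is on another build.

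**Figure D1:**
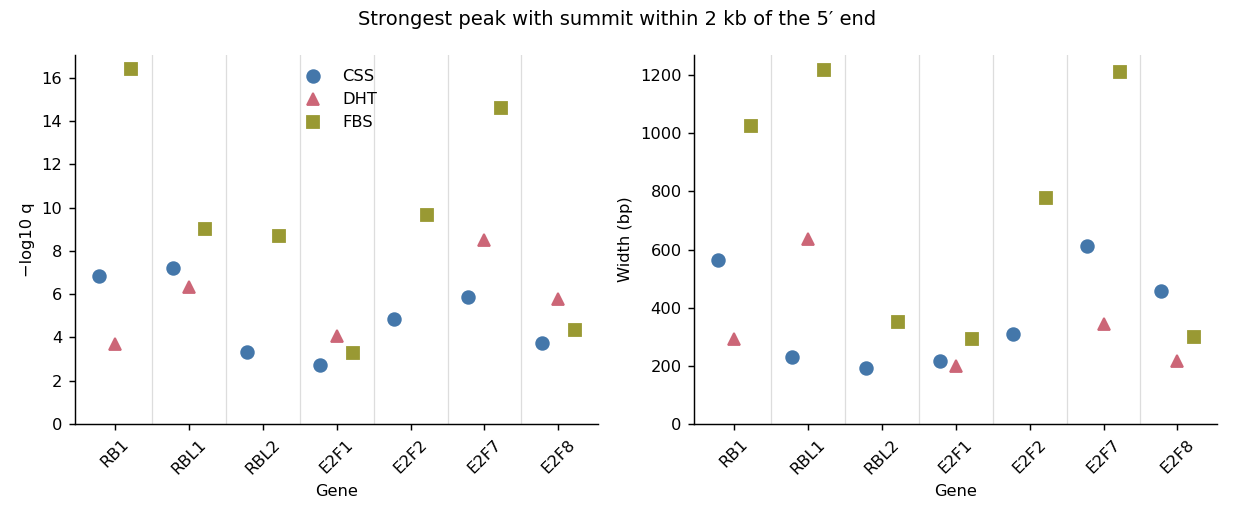
The −log10 q (left) and the width in bp (right) of the strongest ZBTB7A peak with its summit within 2 kb of the 5′ end, for each gene and list (circles CSS, triangles DHT, squares FBS). No point is drawn for RBL2 and E2F2 in DHT, where no peak was called. The FBS values of RB1 (16.4) and E2F7 (14.6) stand above those of the other 5 genes, and E2F1 is low in every list.

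The peaks at the 5′ ends differed in strength between the genes. In FBS the 5′ end peak had the highest −log10 q of the gene at RB1, RBL2, E2F2 and E2F7, 4 of the 7 genes. This was so for 2 genes in CSS (RB1 and E2F7) and for E2F7 in DHT. Over the genes the FBS values ran from 3.30 to 16.4 with a median of 9.03. The CSS values ran from 2.71 to 7.22 with a median of 4.87, and the DHT values from 3.68 to 8.50 with a median of 5.76. None of the 7 CSS and 6 DHT peaks at the 5′ ends reached a −log10 q of 10. In the whole lists 14.5% of CSS and 11.8% of DHT peaks did, and counts this small cannot be told apart from those shares. The FBS peaks at RBL1, E2F7 and RB1 were 1219, 1212 and 1025 bp wide, where the median of the FBS list is 258 bp and 0.356%, 0.368% and 0.867% of its peaks are as wide. When a −log10 q of 5 or more was required, 3 genes had a 5′ end peak in CSS, 3 in DHT and 5 in FBS.

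**Figure D2:**
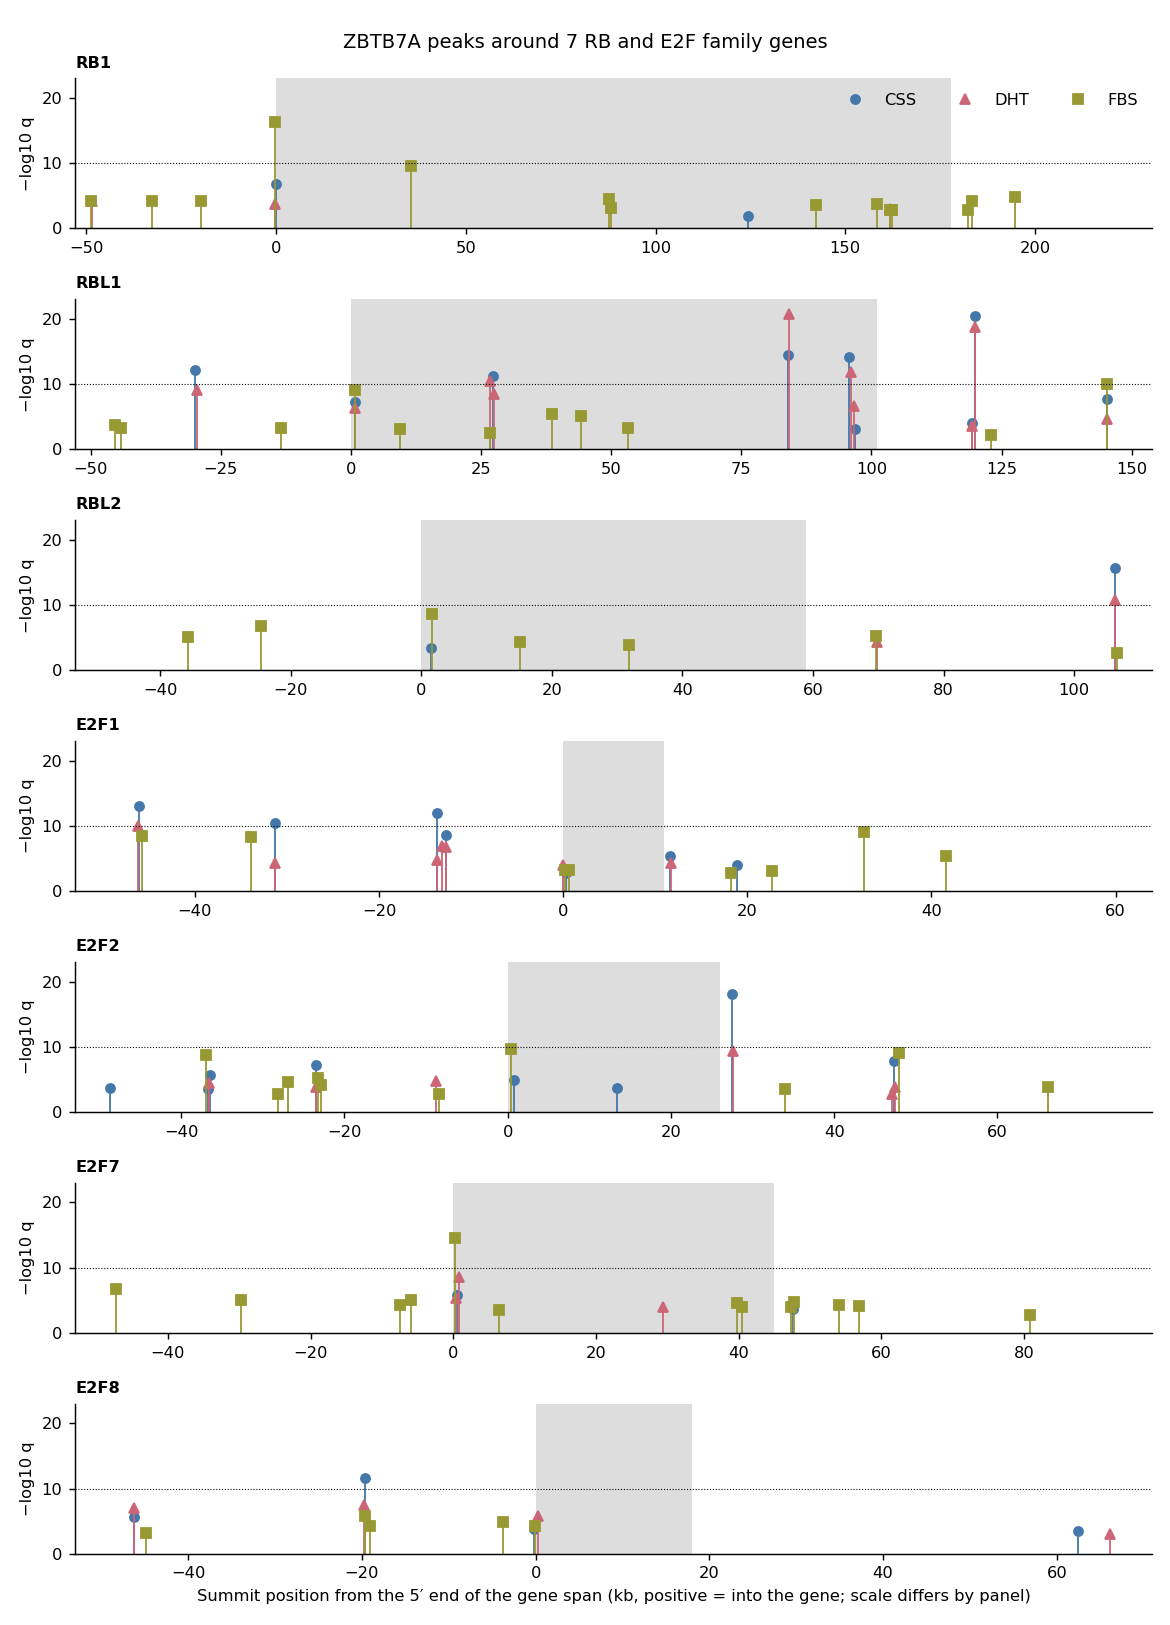
Every ZBTB7A peak of the 7 genes, drawn at its summit's distance from the 5′ end in kb, with its −log10 q as height (circles CSS, triangles DHT, squares FBS). Grey marks the gene span and the dotted line a −log10 q of 10. At RB1 and E2F7 the tallest marks are FBS peaks at the 5′ end, while at RBL1 they are CSS and DHT peaks 84 to 120 kb into and past the gene.

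RB1 (chr13:48878000-49056000, plus strand), which encodes the RB protein, had 2 CSS, 3 DHT and 14 FBS peaks in a window of 278 kb. The peak at its 5′ end, at chr13:48877388-48878412 in FBS, had a −log10 q of 16.4 and a fold enrichment of 8.40 and ranked 1329 of the 124868 FBS peaks. The CSS peak there had a −log10 q of 6.83 and a fold enrichment of 6.75, and the DHT peak 3.68 and 4.94. This was the single RB1 region with a peak in each list, and its FBS and CSS peaks led their lists at the gene. The highest DHT peak of RB1 lay 48.6 kb upstream, near the limit of the window, at a −log10 q of 4.21. Inside the gene, FBS had a peak 35.5 kb from the 5′ end with a −log10 q of 9.59, and neither CSS nor DHT had a peak there. The other 12 FBS peaks had −log10 q values between 2.84 and 4.85. Windows of the same length held on average 3.59 CSS, 3.25 DHT and 12.1 FBS peaks, so the counts at RB1 were close to those of the rest of the genome.

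RBL1 (chr20:35624000-35725000, minus strand), which encodes p107, was the gene richest in strong peaks. It had 9 CSS, 10 DHT and 11 FBS peaks in 201 kb, and as many or more were found in 2.48%, 1.04% and 35.0% of windows of that length. All 9 CSS peaks overlapped a DHT peak (lower bound 66.4%, against 56.8% of the whole CSS list). All 10 DHT peaks overlapped a CSS peak (lower bound 69.2%, against 63.9% of the whole DHT list). These peaks were strong for their lists, with a median −log10 q of 11.2 in CSS and 8.81 in DHT, beside 4.96 and 5.22. A value of 10 was reached by 5 of the 9 and 4 of the 10. Over the whole lists, 95.2% of CSS and 94.6% of DHT peaks this strong overlapped a peak of the other list. Whether overlap at RBL1 exceeds that of equally strong peaks elsewhere was not tested. The DHT peak at chr20:35640547-35641312, inside the gene 84.1 kb from its 5′ end, had a −log10 q of 20.8 and ranked 161 of 34120. Its CSS partner had a −log10 q of 14.4 and ranked 2273 of 37782. A second site, 120.0 kb from the 5′ end and past the end of the gene at chr20:35604602-35605372, had a −log10 q of 20.5 in CSS (rank 758) and 18.7 in DHT (rank 274). Another site, 95.7 kb into the gene, had 14.1 in CSS and 11.8 in DHT. These 3 sites had no FBS peak. A site 29.9 kb upstream also had peaks in CSS (12.2) and DHT (9.08) and none in FBS. An FBS peak overlapped 3 of the 9 CSS peaks (33.3%, 7.49 to 70.1%) and 3 of the 10 DHT peaks (30.0%, 6.67 to 65.2%). The shares of the whole lists, 44.1% and 48.2%, lie within these intervals. Among strong peaks of the whole lists, 47.9% in CSS and 47.1% in DHT overlapped an FBS peak, so strong sites without one are common.

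The RBL1 sites seen in FBS had another order of strength. At the 5′ end, FBS had a peak at chr20:35723636-35724854 with a −log10 q of 9.03, beside 7.22 in CSS and 6.35 in DHT. The highest FBS peak of the window lay 145.4 kb from the 5′ end, outside the gene, at 9.99, beside 7.72 in CSS and 4.58 in DHT. A site 27.3 kb into the gene was strong in CSS (11.2) and DHT (10.5) and weak in FBS (2.51). Of the 11 FBS peaks at RBL1, 3 overlapped a CSS or DHT peak (27.3%, 6.02 to 61.0%, against 17.2% of the whole FBS list).

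RBL2 (chr16:53467000-53526000, plus strand), which encodes p130, had 2 CSS, 2 DHT and 7 FBS peaks in 159 kb. At its 5′ end the FBS peak, chr16:53468464-53468815, had a −log10 q of 8.69 and a fold enrichment of 6.79, the highest FBS values of the gene. The CSS peak there (chr16:53468376-53468566) had a −log10 q of 3.33 and ranked 31028 of 37782, and DHT had none. The strongest CSS and DHT peaks lay 106.2 kb from the 5′ end, far past the gene, with 15.6 and 10.7. The FBS peak in that region had 2.67. This was the single RBL2 region with a peak in each list. A further site, 69.6 kb from the 5′ end, had peaks in FBS (5.23) and DHT (4.34) and none in CSS. In the GRCh38 gene table AKTIP falls in the RBL2 window, SAMHD1 and MROH8 in that of RBL1, and ITM2B, LPAR6 and RCBTB2 in that of RB1.

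E2F1 (chr20:32263000-32274000, minus strand), the gene of the founding activator E2F, had 7 CSS, 7 DHT and 8 FBS peaks in 111 kb. As many or more were found in 1.17%, 0.789% and 24.8% of windows of that length. The peaks at its own 5′ end were weak in each list. CSS had a −log10 q of 2.71 (chr20:32273633-32273848), DHT 4.06 (chr20:32273888-32274085) and FBS 3.30 (chr20:32273248-32273540). In CSS and in DHT this was the lowest of the 7 peaks of the gene. A second FBS peak, at chr20:32273748-32274002, had 3.23. The stronger E2F1 peaks lay upstream: at 46.1 kb CSS had a −log10 q of 13.0, DHT 9.92 and FBS 8.42. This site and the 5′ end were the E2F1 regions with a peak in each list. At the 5′ end the CSS and DHT peaks did not overlap each other. Each of them overlapped the second FBS peak, which joined them, and the FBS peak with 3.30 overlapped neither. At 13.7 kb upstream CSS had 11.9 and DHT 4.76, at 12.7 kb CSS had 8.63, with up to 6.91 in DHT, and at 31.3 kb CSS had 10.4 and DHT 4.27. FBS had no peak at these 3 sites. An FBS peak overlapped 2 of the 7 CSS peaks and 2 of the 7 DHT peaks of E2F1 (28.6% each, 3.67 to 71.0%). The shares of the whole lists, 44.1% and 48.2%, lie within the interval. The highest FBS peak of the window, 32.7 kb from the 5′ end on the far side of the gene, had 9.13 and no partner. The window of E2F1 also holds parts of 6 other protein-coding genes in that table, CBFA2T2, NECAB3, C20orf144, ACTL10, PXMP4 and ZNF341. Peaks in the flanks were not assigned to any gene.

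E2F2 (chr1:23832000-23858000, minus strand), the other activator, had 8 CSS, 6 DHT and 10 FBS peaks in 126 kb. Windows of this length held as many or more in 0.892%, 2.63% and 19.1% of cases. Its 5′ end had an FBS peak at chr1:23856941-23857716 with a −log10 q of 9.66 and a fold enrichment of 4.89, the highest FBS −log10 q of the gene. CSS had 4.87 there and DHT no peak. The CSS leader lay 27.5 kb from the 5′ end, just past the gene, at chr1:23830047-23830857 with a −log10 q of 18.1 and rank 1184. Its DHT partner, with 9.42, also led the DHT peaks of E2F2, and FBS had no peak there. E2F2 regions with a peak in each list lay upstream at 23.4 kb (7.18 in CSS, 3.82 in DHT, 5.21 in FBS) and at 36.9 kb (5.71, 4.38 and 8.75). In the latter region the CSS peak with 5.71 overlapped the DHT peak and not the FBS peak. A second CSS peak there, with 3.49, overlapped both. In the gene table the window also touches ASAP3 and ID3.

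E2F7 (chr12:77415000-77460000, minus strand), an atypical repressor, had 2 CSS, 3 DHT and 13 FBS peaks in 145 kb, a window that touches no other protein-coding gene in the table. Its 5′ end was the leading site in each list and the single E2F7 region shared by all of them. CSS had a −log10 q of 5.87, DHT 8.50 and FBS 14.6, and the FBS peak, chr12:77458767-77459978, ranked 1988. DHT had a second peak there with 5.30. Among the DHT 5′ end peaks of the family, that of E2F7 had the highest −log10 q and ranked 6413. The 13 FBS peaks compare with a mean of 6.56 in windows of this length, and 13.0% of windows held as many or more. Apart from the 5′ end, the FBS values lay between 2.76 and 6.74.

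E2F8 (chr11:19245000-19263000, minus strand), the other atypical repressor, had 4 CSS, 4 DHT and 5 FBS peaks in 118 kb. Its leading site in each list, and the single region shared by all 3 lists, lay 19.7 kb upstream at chr11:19282596-19282799 (CSS), with a −log10 q of 11.6 in CSS, 7.48 in DHT and 5.87 in FBS. At the 5′ end the values were 3.73 in CSS, 5.76 in DHT and 4.33 in FBS. There the CSS peak (chr11:19262810-19263266) overlapped the FBS peak, while the DHT peak (chr11:19262578-19262795) ended just short of both. A site 46.2 kb upstream had peaks in CSS (5.57) and DHT (7.01) and none in FBS. ZDHHC13 and CSRP3 are the other genes of the window in the table.

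**Figure D3:**
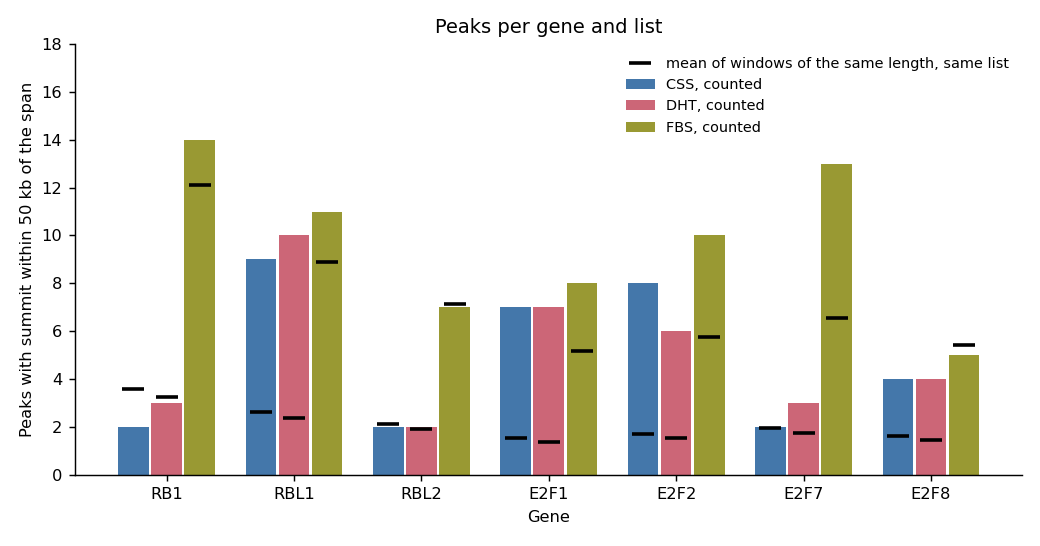
Number of ZBTB7A peaks with a summit within 50 kb of each gene span in the CSS, DHT and FBS lists (bars), with the mean over windows of the same length in the same list (black dashes). RBL1, E2F1 and E2F2 rise above the dashes most in CSS and DHT, as 9, 7 and 8 CSS peaks against means of 2.63, 1.53 and 1.71.

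Over the 7 genes together, the lists from hormone-depleted serum held more ZBTB7A peaks than windows of the same lengths hold on average. The count was 2.25 times the mean of windows of the same lengths in CSS (Poisson interval 1.56 to 3.14), 2.55 times in DHT (1.78 to 3.55) and 1.33 times in FBS (1.03 to 1.69). These means run over all windows with a peak in any list, not over windows with genes. With as many top peaks from each list as the DHT list holds, the FBS value was 0.9999, against windows with a peak in any shortened list. The excess was uneven between the genes: RBL1, E2F1 and E2F2, grouped after their counts were seen, had 24 CSS, 23 DHT and 29 FBS peaks, or 4.09, 4.32 and 1.46 times the mean of windows. RB1, RBL2, E2F7 and E2F8 had 10, 12 and 39 peaks, or 1.08, 1.43 and 1.25 times. FBS had 2 times as many family peaks as CSS, where the whole FBS list is 3.30 times as long. By gene the FBS count was between 1.14 times the CSS count, at E2F1, and 7 times, at RB1. With 1 list per condition these ratios are descriptions and were not tested.

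Most peaks lay outside the genes, as the windows are mostly flank. Of the CSS peaks 11 lay in a span and 23 in a flank, and for DHT the counts were 12 and 23, for FBS 23 and 45. Per Mb this was 25.1 in spans and 32.9 in flanks for CSS, 27.4 and 32.9 for DHT, and 52.5 and 64.3 for FBS. The nearest peaks to the limit of 50 kb were alike on both sides in distance. The last ones inside lay at 48.8 kb in CSS (E2F2, −log10 q of 3.70), 48.6 kb in DHT (RB1, 4.21) and 48.9 kb in FBS (RB1, 4.26). The first ones outside, all at RB1, lay at 51.1 kb (5.57), 51.2 kb (6.93) and 51.4 kb (14.5).

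Most family peaks of CSS and DHT were called in both of these lists, as in the lists at large. Of the CSS peaks 24 of 34 (70.6%, 52.5 to 84.9%) shared at least 1 bp with a DHT peak, against 56.8% of the whole CSS list. Of the DHT peaks 27 of 35 (77.1%, 59.9 to 89.6%) overlapped a CSS peak, against 63.9% of the DHT list. Both background shares lie within the intervals. A −log10 q of at least 10 was reached by 11 CSS peaks (32.4%, 17.4 to 50.5%), 5 of them at RBL1 and 3 at E2F1, against 14.5% of the list, which lies below the interval. E2F2, E2F8 and RBL2 had 1 such CSS peak each, and RB1 and E2F7 had none. The interval treats neighbouring peaks as independent, so the higher share is one of RBL1 and E2F1 more than of the family. The same value was reached by 5 DHT peaks (14.3%, 4.81 to 30.3%), 4 at RBL1 and 1 at RBL2, against 11.8% of the list. All 11 strong CSS peaks overlapped a DHT peak (lower bound 71.5%), and all 5 strong DHT peaks overlapped a CSS peak. The same shares over the whole lists were 95.2% of strong CSS peaks and 94.6% of strong DHT peaks, so the overlap of strong family sites was near the background. The summits of the 24 shared CSS peaks lay at a median of 114.5 bp from the nearest overlapping DHT summit, and 12 lay within 100 bp. When summits within 100 bp were required, with any other summit of the list allowed, 35.3% of CSS and 34.3% of DHT peaks had a partner. The shares of the whole lists under this rule are not given here, so these values have no background.

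Full and depleted serum had part of the family sites in common. An FBS peak overlapped 15 of 34 CSS peaks (44.1%, 27.2 to 62.1%) and 15 of 35 DHT peaks (42.9%, 26.3 to 60.6%), against 44.1% and 48.2% of the whole lists. In the other direction 18 of 68 FBS peaks (26.5%, 16.5 to 38.6%) overlapped a CSS or DHT peak, against 17.2% of the FBS list. Of the strong peaks 4 of 11 in CSS (36.4%, 10.9 to 69.2%) and 2 of 5 in DHT (40.0%, 5.27 to 85.3%) had an FBS partner. The same shares over the whole lists were 47.9% and 47.1%. The 2 FBS peaks that reached a −log10 q of 10 (2.94%, 0.358 to 10.2%, against 4.92% of the list) were the 5′ ends of RB1 and E2F7. Each overlapped a CSS and a DHT peak (lower bound 15.8% for either list). Over the whole FBS list, 59.2% of such strong peaks overlapped a CSS peak and 59.4% a DHT peak. Each of these background shares lies within the interval of the family's share.

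**Figure D4:**
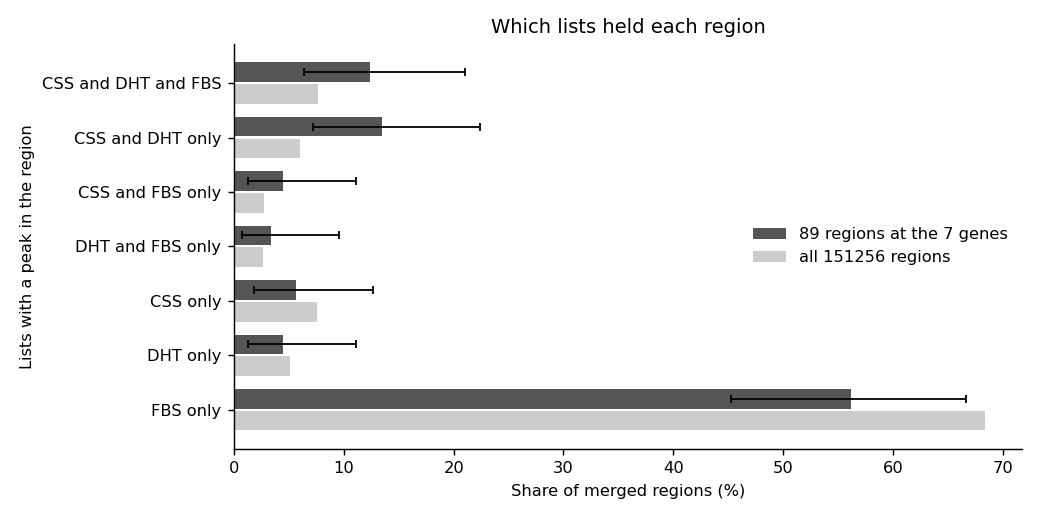
Share of merged ZBTB7A regions by the lists that held a peak in them, for the 89 regions at the 7 genes (dark, bars of error are exact 95% intervals) and all 151256 regions of the series (light). Regions in CSS and DHT without FBS made up 13.5% at the 7 genes, most of them at RBL1 and E2F1, and 5.97% in the series.

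After overlapping peaks were merged, the family had 89 regions. Each of the 3 lists held a peak in 11 of them (12.4%, 6.33 to 21.0%), against 7.67% of all regions. These 11 were 3 at RBL1, 2 each at E2F1 and E2F2, and 1 each at RB1, RBL2, E2F7 and E2F8. A further 12 regions (13.5%, 7.17 to 22.4%) had CSS and DHT peaks and no FBS peak, against 5.97% in the series, which lies below the interval. They were 5 at RBL1, 4 at E2F1, 2 at E2F2 and 1 at E2F8, and none at RB1, RBL2 or E2F7. The interval treats neighbouring regions as independent, and most of these regions were at RBL1 and E2F1, both on chromosome 20. The higher share is therefore not a trait of the family as a whole. FBS alone held 50 regions (56.2%, 45.3 to 66.7%), of which RB1 and E2F7 had 11 each. The series share of 68.4% lies above this interval, which has the same limit. The remaining regions were 5 in CSS alone (5.62%, against 7.57% in the series) and 4 in DHT alone (4.49%, against 5.10%). A further 4 were in CSS and FBS (4.49%, against 2.69%) and 3 in DHT and FBS (3.37%, against 2.61%). For these remaining classes each series share lies within the interval of the family's share. Of the 11 regions found in every list, 4 were at a 5′ end, those of RB1, RBL1, E2F1 and E2F7. In that of E2F1 the CSS and DHT peaks were joined only through an FBS peak.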

How the data were processed

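ChIP-seq of ZBTB7A in VCaP cells is represented by 3 narrowPeak lists, 1 per condition, which the labels name for 2 CSS libraries, 2 DHT libraries and 1 FBS library. Per the submitters' processing notes, the tools included MACS2 2.0.10.20131216, SAMtools 0.1.18 and BWA 0.7.2-r351, and the build was hg19. No source used here gives the control, the threshold, duplicate filters or how libraries were combined. The authors deposited each peak's fold enrichment (a ratio over background), −log10 q and score, which is the whole part of 10 times −log10 q in 100% of peaks. The deposited summit offset gave the summit. Depth is unknown.

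The members and lists were chosen with earlier results of these data known. Spans were taken from the rule for the members, and their lengths differ from GRCh38 gene lengths by at most 1.82 kb. Strand came from the RefSeq promoter table, and for E2F8 from general knowledge. The text names all 7 genes and, of their peaks, those within 2 kb of a 5′ end, the one with the highest −log10 q in each gene and list, and regions found in all 3 lists. Other peaks named were chosen after their values were seen. Other RB pathway genes were not analysed here, for want of hg19 positions. Background windows covered chromosomes 1 to 22 and X. Shares have Clopper-Pearson intervals. Overlap code was tested on simulated data and equalled bedtools 2.31.1 in 12 of 12 comparisons. Analyses ran in Python 3.11.15 with pandas 2.3.3, numpy 2.4.6, matplotlib 3.10.9 and scipy 1.17.1. Alternatives were thresholds, flank, overlap rule, 5′ window and equal list lengths.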

Additional observations from a re-analysis of the deposited data

How the results depend on the processing

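Of 39 alternative values, 25 left the interval (for shares and densities) or 1.5-fold range (for counts) around the value given above, and 14 did not. Stricter thresholds and a narrower flank leave fewer peaks by construction. At a −log10 q of at least 5 the 7 genes had 21 CSS, 18 DHT and 23 FBS peaks, and at 10 they had 11, 5 and 2. At a fold enrichment of at least 5 CSS had 22 and FBS 14, and within 10 kb of a span the counts were 17, 16 and 36. When the overlap had to span 50% or more of each peak, 47.1% of CSS peaks had a DHT partner and 45.7% of DHT peaks a CSS partner, 14.7% of CSS and 17.1% of DHT peaks an FBS partner, and 14.7% of FBS peaks a CSS or DHT partner. With summits within 100 bp these shares were 35.3%, 34.3%, 11.8%, 11.4% and 8.82%. When partners in both lists had to reach a −log10 q of 5, 94.4% of 18 DHT peaks had a CSS partner and 61.9% of 21 CSS peaks a DHT partner, while 33.3% of these CSS and 27.8% of these DHT peaks had an FBS partner and 30.4% of 23 FBS peaks a CSS or DHT partner. At that threshold 3 genes in CSS and 3 in DHT had a 5′ end peak. The shares of the whole lists under these overlap rules and this threshold are not given here, so the partner shares above have no background. With 34120 top peaks from every list, FBS peaks at the genes were 0.9999 times the mean of windows (0.560 to 1.65), on 15 peaks. The CSS value was 2.24 (1.54 to 3.15) and the DHT value 2.37 (1.65 to 3.29). The DHT list was not shortened by this, so its fall from 2.55 came from the windows. Only windows with a peak in any list entered the mean, and these changed when FBS and CSS were cut. Part of the fall in FBS has this source too. No paired analysis was possible because each condition has 1 list, although CSS and DHT libraries share numbers in the labels, and no library could be left out.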

Other observations

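Among weak FBS peaks, with a −log10 q under 5, the fold enrichment varied between genes. Its median was 2.77 at E2F1 (4 peaks), 3.41 at E2F2 (6) and 3.59 at RBL1 (7), and 4.57 at RB1 (12), 4.56 at E2F7 (9) and 4.51 at RBL2 (3), and 4.11 at E2F8 (4), beside 4.21 for such peaks in the whole FBS list. At the same −log10 q of 2.84, the FBS peak at E2F1 had a fold enrichment of 2.43 and the 3 peaks at RB1 had 3.92. In the other lists the genes did not stand in this order. The DHT medians were 5.08 at E2F1 (4 peaks), 5.02 at E2F2 (5), 4.85 at RBL1 (2) and 4.94 at RB1 (3), beside 4.85 in the list. The CSS medians were 4.79 at E2F2 (4 peaks), 4.56 at E2F1 (2), 3.89 at RBL1 (2) and 3.67 at RB1 (1), beside 4.78 in the list. The cause was not tested. Many weak FBS values are tied: 7 peaks of the family (4 at RB1 and 1 each at RBL2, E2F7 and E2F8) had a −log10 q of 4.26, which 12515 FBS peaks (10.0% of the list) share to all deposited digits, so their order within the list has no meaning.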
